A study of Homo sapiens with 9 samples.

Results

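The S100 proteins were followed across 3 lines of cultured human colorectal carcinoma cells: the SW480 line carrying EGFP, and its single-cell progenies SCP51 and SCP58. The members were S100A14, S100A2, S100A3, S100A4, S100A6, S100A10, S100A11, S100A13, S100A16 and S100P, found as every probe set annotated to exactly 1 of these symbols. That gave 13 probe sets for 10 genes, of 54675 probe sets on the array and 19775 genes with a probe set of their own. S100A6, S100A10 and S100A13 had 2 probe sets each and the other members had 1.

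Each line was measured on 3 Affymetrix arrays, labelled as biological replicates. The parent was the uncloned SW480/EGFP population, and no line had been treated. After orthotopic implantation in mice SCP51 was classed as high and SCP58 as low in metastatic potential, but each class was 1 clone, the RNA came from cells in culture, and every difference given is one between lines. The labels do not say how long the replicate cultures were kept apart, so errors and tests measure the spread between these arrays. The family was selected on a measured value, the low signal of S100A14 in SCP51, and the other members were named with it, so the members' differences between lines are given as a description, with the standard error (SE) of the fit and without p-values.

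S100 proteins are small calcium sensors built from a pair of EF-hands, the helix-loop-helix fold that holds a calcium ion. Most form dimers, open a binding face when calcium rises and then dock onto partner proteins such as annexins, myosin or p53, and some are also secreted and act on the receptor AGER. Most S100A genes lie in a cluster on the long arm of chromosome 1, and single members mark particular epithelia and are often raised or lost in carcinomas.

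In the annotation order of chromosome 1 the S100A cluster ends with S100A6, S100A5, S100A4, S100A3, S100A2, S100A16, S100A14, S100A13 and S100A1. S100A10 and S100A11 lie at its other end, and S100P is the member outside it, on chromosome 4. The bases just upstream of the annotated starts are shown for S100A14, the member with the largest differences, for its direct neighbour S100A16, for S100A2, lower in SCP51 as well, and for S100A4, whose arrays in both derived lines all lay above those of the parent. All 4 lie on the minus strand of GRCh38.p14, at chr1:153616326-153616575, chr1:153613138-153613387, chr1:153565845-153566094 and chr1:153545807-153546056, and each run holds the 250 bases before the RefSeq start (the first of 2 listed starts for S100A16 and S100A2), written 5′ to 3′ along the gene. Capitals mark matches to the motifs searched.
S100A14: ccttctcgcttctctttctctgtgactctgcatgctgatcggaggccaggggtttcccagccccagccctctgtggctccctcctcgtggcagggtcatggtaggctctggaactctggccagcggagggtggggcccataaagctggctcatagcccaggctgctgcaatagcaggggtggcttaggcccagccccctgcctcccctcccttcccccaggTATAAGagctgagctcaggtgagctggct
S100A16: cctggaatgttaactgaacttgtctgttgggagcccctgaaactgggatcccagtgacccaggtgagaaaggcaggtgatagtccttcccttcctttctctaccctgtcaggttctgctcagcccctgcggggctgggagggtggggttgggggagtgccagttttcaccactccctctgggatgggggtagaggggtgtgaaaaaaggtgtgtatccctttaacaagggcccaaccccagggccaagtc
S100A2: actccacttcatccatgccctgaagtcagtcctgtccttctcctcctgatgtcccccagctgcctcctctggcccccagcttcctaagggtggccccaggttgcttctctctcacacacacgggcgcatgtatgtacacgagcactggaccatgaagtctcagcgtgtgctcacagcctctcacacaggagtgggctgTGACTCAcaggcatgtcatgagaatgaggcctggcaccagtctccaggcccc
S100A4: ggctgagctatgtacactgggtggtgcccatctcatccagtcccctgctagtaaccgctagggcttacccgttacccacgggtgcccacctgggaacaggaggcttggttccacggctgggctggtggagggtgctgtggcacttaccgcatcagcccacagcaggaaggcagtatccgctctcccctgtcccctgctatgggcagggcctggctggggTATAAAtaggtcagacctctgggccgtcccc

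The motifs were the TATA box as TATAAN, the GC box as GGGCGG, the CCAAT box by its name, and the AP-1 site as TGANTCA, each searched on both strands. S100A14 held TATAAG 29 bases before its start and S100A4 held TATAAA at 31 bases, on the strand of the gene. Across the first listed starts of the 10 members, 4 held TATAAN (S100A14, S100A4, S100A6 and S100P), against 18.9% of all 35116 windows of this length. S100P held TATAAN on both strands at overlapping positions. TGANTCA was found in S100A2, 52 bases before the start, and in S100A3, against 6.57% of windows. GGGCGG was in 5 members' windows (42.6% of all windows), with 2 of the 3 matches of S100A6 overlapping, and CCAAT in 1 (32%). The window of S100A16 held none of the 4 motifs at this start. At its second listed start it held GGGCGG at 45 bases and, on the opposite strand, CCAAT at 237 and 29 bases. The second listed start of S100A13 held TATAAA at 29 bases. At the first listed starts, CpG dinucleotides numbered 24 in S100A6 and S100A10, 15 in S100A11 and S100A13, and 7 in S100A4. They numbered 4 in S100A14, S100A2, S100A3 and S100P, and 1 in S100A16 (6 at its second start). The median window held 11. A match is a string of letters in a window, and no binding or methylation was measured here.

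The deposited signal is on a linear scale with array medians between 41.1 and 44.3, and signals of different probe sets cannot be ranked against each other. Of 10 epithelial markers, 9 (EPCAM, CDH1, KRT8, KRT18, KRT19, VIL1, CDX1, CDX2 and CEACAM5) lay above the array median on all 9 arrays. Of these, CDX2 (45.5 to 58.2) and CEACAM5 (43.6 to 69.5) came close to it. KRT20 lay below it on all arrays, and none of the 9 tested was called between lines. Of fibroblast, leukocyte and endothelial markers, 1 in each list (COL1A1, CD3E and VWF) lay above the median on all 9 arrays. DCN did so on 8 and PECAM1 on 6, while COL1A2, COL3A1, LUM, PTPRC, CD14, LYZ and CDH5 lay below it throughout. A signal above the median therefore does not by itself show that a gene is expressed. S100A2, CGN, CALB2 and TESC, called below, stayed under the highest COL1A1 signal (172) on every array, so this limit holds for them. The array of SCP51 replicate 1 stood apart, with correlations of 0.891 to 0.911 across genes with the other arrays, against 0.945 to 0.979 among the other 8. Results that rest on it are given with and without it.

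Of the 10 members, 9 passed the filter on dim probe sets (above the array median on at least 3 arrays). S100P did not. A gene was called when its limma p, adjusted over all 13598 genes tested, was under 0.05. In SCP51 against the parent 1 of 9 members was called, S100A14, against 2.96% of all genes. In SCP51 against SCP58 there were 2, S100A14 and S100A2, against 4.08% of all genes. In SCP58 against the parent limma called no member, higher or lower, where 0.140% of all genes were called (0.0662% higher and 0.0735% lower). At an unadjusted p under 0.05 there were 2 of 9 members in that comparison, against 8.60% of all genes. The family was selected on the S100A14 signal, so these counts describe the members and do not test the family. The split of all calls depended on the scaling: SCP51 against the parent had 187 higher and 215 lower genes as deposited and 247 and 169 after quantile normalization, and SCP51 against SCP58 had 201 and 354 as deposited and 319 and 302 after it. Both called members were lower in SCP51 under each scaling.

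**Figure D1:**
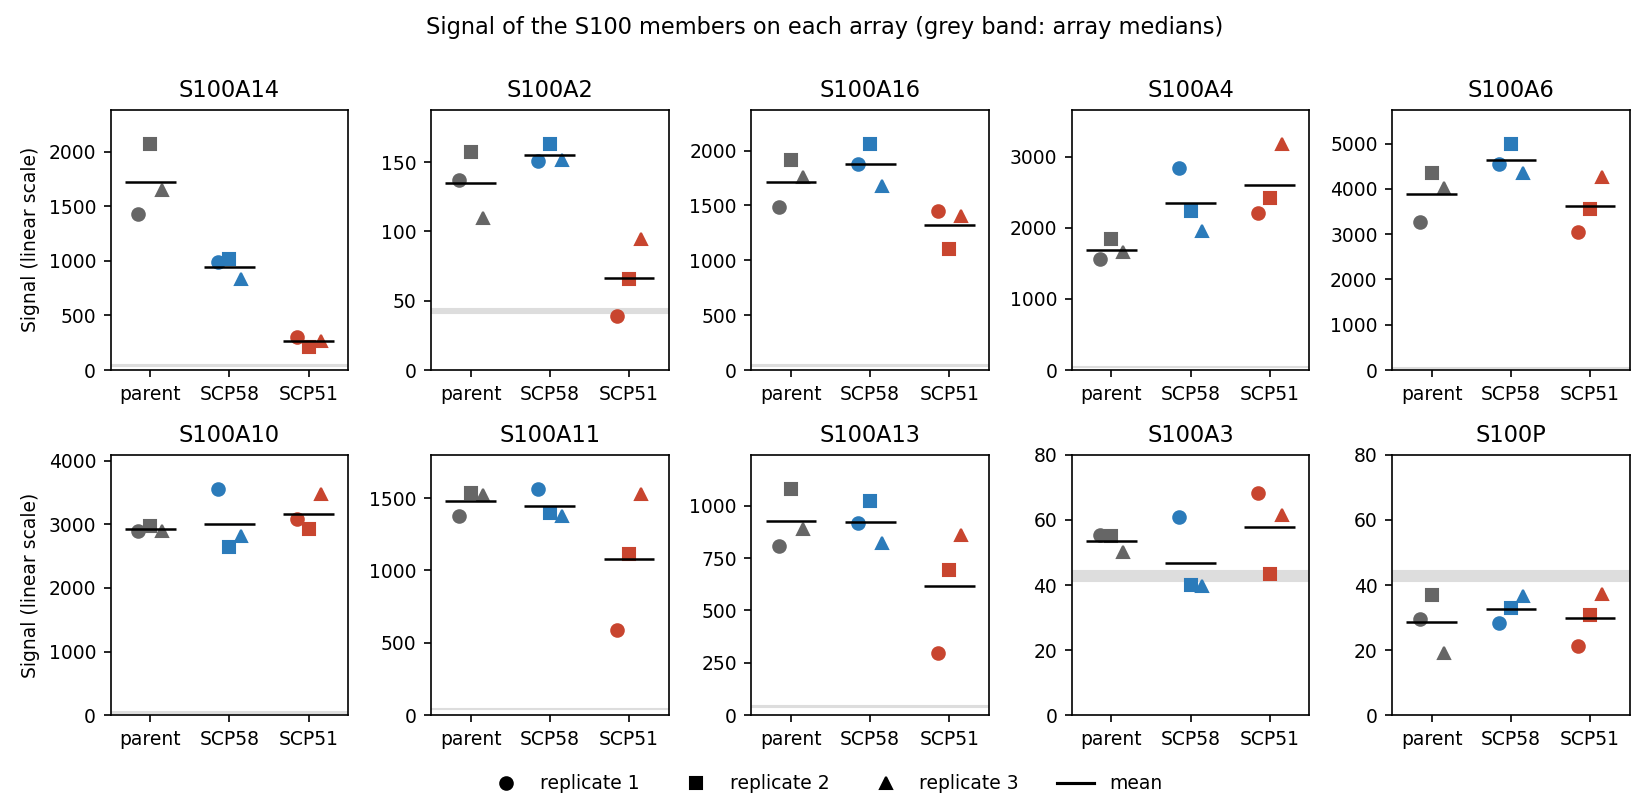
Deposited signal (linear scale, from 0) of the brightest probe set of each member on each of the 9 arrays; symbols are replicates, lines are group means and the grey band spans the array medians (41.1 to 44.3). S100A14 falls into 3 separate groups, with SCP51 between 215 and 302, while S100P lies below the band on every array.

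S100A14, a member found mainly in epithelia that binds calcium only weakly, had the widest spread between lines. Its signals were 1434, 2075 and 1653 in the parent, 987, 1021 and 837 in SCP58, and 302, 215 and 270 in SCP51. No array of one line overlapped those of another, and the order was parent, SCP58, SCP51. On the log2 scale S100A14 was lower in SCP51 than in the parent, at -2.71 ± 0.18 (SE, n = 3 per group), or 6.54-fold. It held rank 7 from the lowest among the 13598 genes in this comparison. SCP51 lay below SCP58 by a log2 difference of -1.86 ± 0.18, or 3.63-fold. SCP58 itself stood at -0.85 ± 0.18 from the parent, 1.80-fold lower and not called, although the arrays did not overlap, as was the case for 17.0% of all genes in that comparison. Since the arrays measure bulk RNA, fewer cells with S100A14 transcript and less transcript per cell cannot be told apart.

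The low level of S100A14 in SCP51 did not rest on SCP51 replicate 1, whose 302 was the highest of the 3 arrays. Without it the log2 difference from the parent was -2.82, and over 20 alternatives it ranged from -2.83 to -2.57. Against SCP58 the range was -1.97 to -1.73, and between SCP58 and the parent -0.97 to -0.70. These ranges describe how far the processing moved a value that the genes were selected on.

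S100A16, a widely expressed member, and S100A13, which takes part in the export of FGF1 and IL1A from cells without a signal peptide, are the direct neighbours of S100A14 on the chromosome. S100A16 had signals of 1487, 1911 and 1756 in the parent, 1880, 2064 and 1680 in SCP58, and 1452, 1104 and 1404 in SCP51. All 3 SCP51 arrays lay below those of both other lines, and parent and SCP58 overlapped. The log2 differences were -0.38 ± 0.15 against the parent and -0.51 ± 0.15 against SCP58, neither called. Without SCP51 replicate 1 the difference from SCP58 was -0.59 and was called, as it was with array weights. It was not called in the other 18 of 20 alternatives. Calls over all genes in this comparison, 4.08% in the main fit, moved with the settings too, as counted at the end.

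S100A13 had signals of 809, 1081 and 888 in the parent and 916, 1021 and 823 in SCP58. In SCP51 they were 298, 694 and 861, so that replicate 1 stood far below the rest. The log2 difference from the parent was -0.71 ± 0.35 with this array and -0.25 without it, and it was not called either way. The second S100A13 probe set had the same low array, at 36.8 against 67.5 and 66.5 in the other SCP51 arrays, and a parent range of 60.2 to 63.8. S100A14 and its neighbours on either side thus had log2 differences of -2.71, -0.38 and -0.71 in SCP51 relative to the parent.

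S100A2, a mostly nuclear member of basal epithelia that binds p53, was lower in SCP51. Its signals were 137, 157 and 110 in the parent, 151, 163 and 152 in SCP58, and 39.0, 65.9 and 94.3 in SCP51. The 3 SCP51 arrays lay below all 6 others, although replicate 1 fell under its array median, and parent and SCP58 overlapped. Signals this dim do not by themselves show that the gene is expressed. S100A2 was 2.49-fold lower in SCP51 than in SCP58, at -1.32 ± 0.29 on the log2 scale, and was called. That call was lost in 10 of 20 alternatives: without any 1 of the 3 parent arrays, without SCP51 replicate 2 or without any 1 of the 3 SCP58 arrays (log2 differences from -1.36 to -1.28), and in 3 others. Without SCP51 replicate 1 it stood at -0.98 and was called. The main fit called 4.08% of all genes in this comparison, and leaving out an array moved that number, as counted at the end. Against the parent the difference was -1.10 ± 0.29, not called, and -0.76 without SCP51 replicate 1. Without SCP51 replicate 3 it was -1.40 and called, as were 3.53% of all genes.

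S100A4, or metastasin, which binds non-muscle myosin and is tied to cell motility, was the tested member whose arrays in both derived lines all lay above those of the parent. The parent arrays read 1560.0, 1844 and 1653, those of SCP58 2844, 2236 and 1948, and those of SCP51 2208, 2419 and 3181. SCP51 and SCP58 overlapped with each other. The log2 differences from the parent were 0.61 ± 0.17 in SCP51 and 0.46 ± 0.17 in SCP58. Neither was called as such. The SCP51 difference was called with array weights and without SCP51 replicate 1 (0.72), and the SCP58 difference with array weights. These settings called more of all genes as well. In SCP51 against the parent the share was 9.97% with array weights and 5.39% without SCP51 replicate 1, against 2.96% in the main fit. In SCP58 against the parent array weights also raised the calls over all genes, as counted at the end. Arrays did not overlap, with the derived line higher, for 9.50% of all genes in SCP51 and 9.41% in SCP58, and both comparisons share the parent arrays. Between SCP51 and SCP58 the difference was 0.15 ± 0.17.

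**Figure D2:**
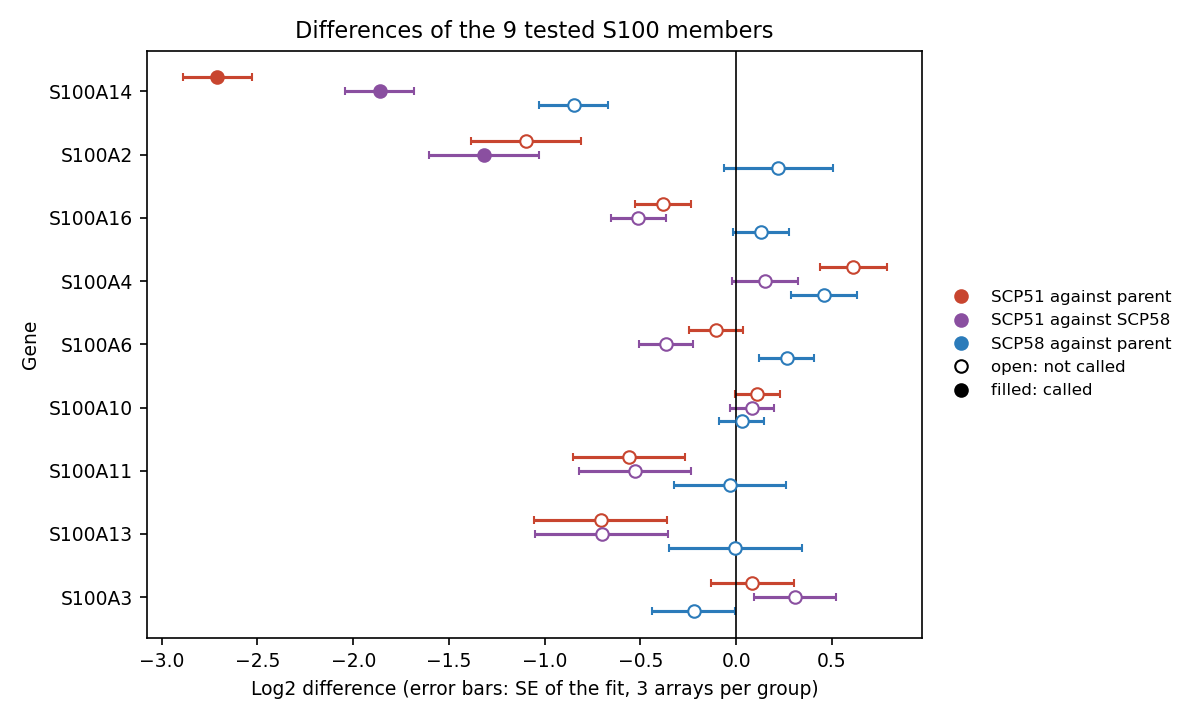
Log2 differences of the 9 tested members in the 3 comparisons; points are fitted differences, bars their SE (3 arrays per group), and filled points were called. S100A14 at -2.71 and -1.86 and S100A2 at -1.32 are the called points, and S100A4 lies right of 0 in both comparisons with the parent.

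S100A6 (calcyclin), S100A10 and S100A11 are docking partners of annexins and gave bright signals in all lines. S100A6 read 3279.5, 4350.5 and 4020.4 in the parent, 4547, 4999.5 and 4359.9 in SCP58, and 3039, 3566 and 4264 in SCP51. SCP58 was the highest line, with each array above those of both others, and parent and SCP51 overlapped. The log2 differences were 0.26 ± 0.14 for SCP58 against the parent and -0.37 ± 0.14 for SCP51 against SCP58, neither called. The dim second probe set of S100A6 (52.2 to 78.7) gave 0.06 and 0.03 for the same comparisons and so did not share the sign of the latter.

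S100A10, which does not bind calcium and joins annexin A2 in a tetramer at the membrane, differed between lines by at most 0.11 on the log2 scale with its bright probe set. This probe set read 2901, 2970 and 2892 in the parent, 3560, 2638 and 2813 in SCP58, and 3079, 2931 and 3473 in SCP51, and all 3 lines overlapped. Its log2 differences were 0.11, 0.03 and 0.08 for SCP51 against the parent, SCP58 against the parent and SCP51 against SCP58, each with an SE of 0.12. Its second probe set, above the array median on 1 of 9 arrays and not in the fit, read 25.6, 27.2 and 30.7 in the parent, 35.8, 32.9 and 34.8 in SCP58, and 31.8, 51.8 and 41.4 in SCP51. Here every array of either derived line lay above every parent array, with log2 differences of 0.56 in SCP51 and 0.31 in SCP58 from the parent and 0.24 between them, so the probe sets of S100A10 differed in this respect.

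S100A11, a partner of annexin A1, read 1376, 1538 and 1519 in the parent and 1564, 1396 and 1375 in SCP58. In SCP51 it read 588, 1115 and 1528, so that its highest array lay within the range of the other lines and replicate 1 far below. Its log2 difference from the parent was -0.56 ± 0.29, and -0.18 without SCP51 replicate 1, not called in any of 20 alternatives.

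**Figure D3:**
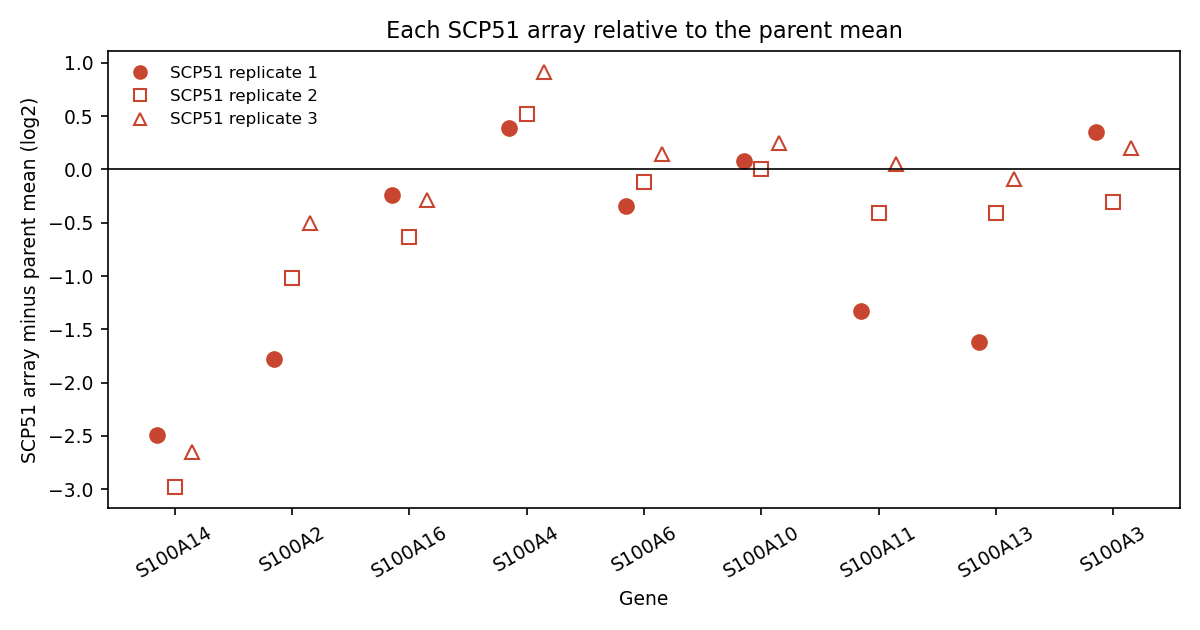
Log2 signal of each SCP51 array minus the mean log2 signal of the 3 parent arrays, for the 9 tested members; filled circles are SCP51 replicate 1. All 3 arrays lie far below 0 for S100A14, whereas for S100A11 and S100A13 replicate 1 lies far below the others.

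SCP51 replicate 1 was the lowest of the 3 SCP51 arrays for 5 of the 9 tested members (S100A2, S100A4, S100A6, S100A11 and S100A13) and the highest for S100A14, S100A3 and S100A16. Of all genes tested, it was the lowest for 51.5%. It lay more than 1 log2 unit under both other arrays for S100A13 (a gap of -1.22 to the nearer one) and for 9.06% of all genes. The median log2 difference of the 9 members from the parent was -0.38 with this array and -0.18 without it, against -0.10 and -0.05 for all genes.

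S100A3, a cysteine-rich and zinc-binding member known from the hair cuticle, lay close to the array median in every line. It read 55.3, 55.2 and 50.2 in the parent, 60.9, 39.9 and 39.7 in SCP58, and 68.2, 43.4 and 61.6 in SCP51. All lines overlapped, and no difference exceeded 0.31 on the log2 scale. S100P, which binds ezrin and is an extracellular ligand of AGER, lay under the array median on all 9 arrays, with signals from 19.0 to 37.2. Its lines overlapped completely, with mean signals of 28.5 ± 9.03 in the parent, 32.6 ± 4.08 in SCP58 and 29.7 ± 8.09 in SCP51 (SD, n = 3).

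Across the family, 6 of the 9 tested members lay below 0 in SCP51 against the parent and 6 of 9 in SCP51 against SCP58. These counts were the same when the arrays were quantile normalized or centred on their 75th percentile. Most of all 13598 genes lay below 0 too. A difference of -0.003 held rank 8636 from the lowest in the first comparison, and -0.004 held rank 8773 in the second. The members' medians were -0.38 and -0.51, beside -0.10 and -0.11 for all genes. Without SCP51 replicate 1 they were -0.18 and -0.25, beside -0.05 and -0.05. In SCP58 against the parent 4 of 9 lay below 0 and the median was 0.03, beside -0.00 for all genes; arrays did not overlap for 2 members higher and 1 lower, against 9.41% and 7.58% of all genes. Arrays did not overlap for 1 member higher and 3 lower in SCP51 against the parent, where the shares of all genes were 9.50% and 18.6%. For SCP51 against SCP58 they did not overlap for 4 lower members and 0 higher, against 17.2% and 7.91% of all genes (25.1% in either direction, and 28.1% in the comparison with the parent).

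Of the other 11 S100 family genes listed, 10 were on the array and 2 passed the filter, S100A1 and S100A12. S100A1, a muscle and nerve member beside S100A13 on the chromosome, read 105, 93.8 and 117 in the parent, 85.6, 88.5 and 81.8 in SCP58, and 16.5, 89.1 and 80.6 in SCP51. Replicate 1 was again the low SCP51 array, and SCP51 against the parent stood at -1.10 ± 0.55 (limma adjusted p = 0.306), and at -0.31 without that array. S100A12, a neutrophil protein, lay near the array median in all lines (39.4 to 49.6). The inflammatory pair S100A8 and S100A9, S100A7 of psoriatic skin, and S100B of glia and melanocytes were among those that did not pass. Of the 7 genes of the S100-fused family, such as FLG, 5 were on the array and none passed.

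The genes around the S100A cluster on chromosome 1, from 15 coding genes before its first gene to 15 after its last, gave 37 tested genes of 70 listed, none called by limma in SCP51 or in SCP58 against the parent (8 and 4 at an unadjusted p under 0.05, where 19.6% and 8.60% of all genes were). In SCP51 against the parent 32 of the 37 lay below 0 as deposited and 30 after either rescaling. Most of all genes lay below 0 as deposited too, with a difference of -0.003 at rank 8636 from the lowest of 13598. The neighbours' median was -0.21, or -0.16 after quantile normalization, against -0.10 and -0.04 for all genes. Without SCP51 replicate 1, 29 of 36 lay below 0 and the median was -0.12, against -0.05 for all genes. The neighbours' differences ranged from -0.67 to 0.58 in this comparison. S100A14, at -2.71, was selected for its low signal in SCP51, so its distance from this range is no test of the region. In SCP51 against SCP58, 2 of 37 neighbours were called, both lower, where 4.08% of all genes were called and 2.60% were lower (10 at an unadjusted p under 0.05, where 21.3% of all genes were). CGN, the tight junction protein cingulin, read 66.0, 66.9 and 66.4 in SCP51, 109, 99.1 and 107 in SCP58, and 79.3, 83.0 and 87.9 in the parent, so that the 3 lines did not overlap. Its difference was -0.66 ± 0.09 (limma adjusted p = 0.00891). THEM4, an acyl-CoA thioesterase, read 304, 248 and 340.4 in SCP51 against 476, 590.1 and 499 in SCP58, and stood at -0.82 ± 0.18 (limma adjusted p = 0.0409). It was not called in 11 of 20 alternatives, among them quantile normalization, and without parent replicates 1 or 3, SCP51 replicate 2 or any 1 SCP58 array (adjusted p from 0.0129 to 0.157 over all alternatives).

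**Figure D4:**
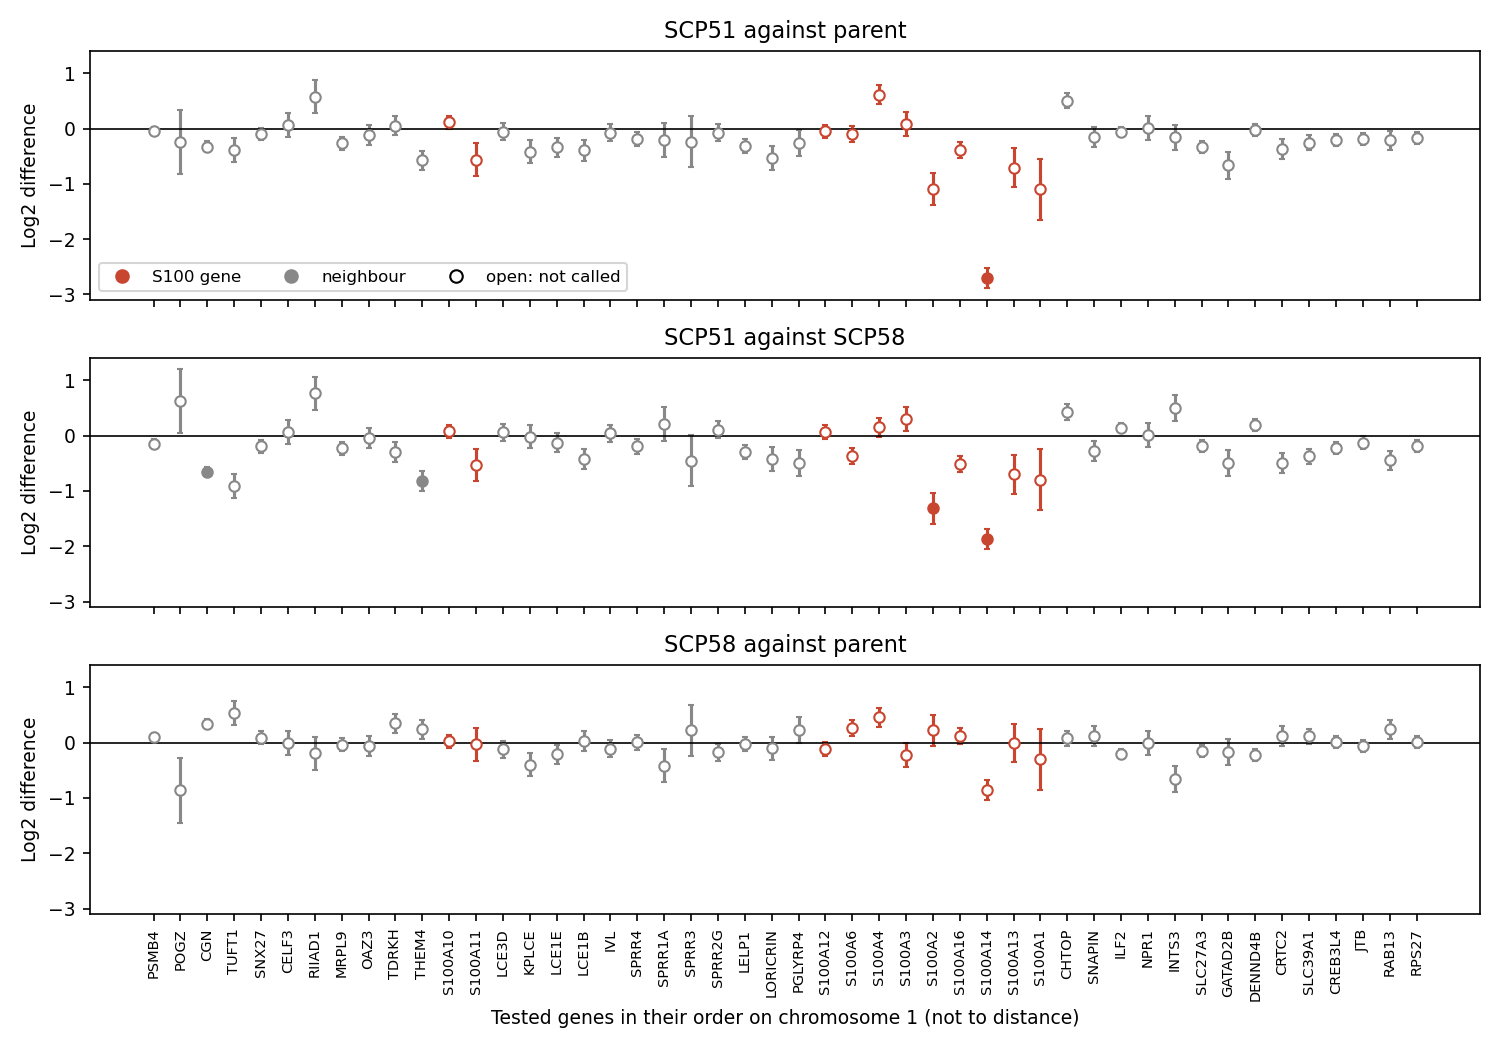
Log2 differences with SE bars (3 arrays per group) of the tested S100 genes (red) and their neighbours (grey), in their order along chromosome 1 and not to distance; filled points were called. In SCP51 against the parent S100A14 is the filled point, at -2.71, between S100A16 at -0.38 and S100A13 at -0.71. The S100A13 difference was -0.25 without SCP51 replicate 1.

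Among genes for known S100 partners, the annexin genes ANXA6 and ANXA2 rose in SCP51 against the parent. The partner list held 27 tested genes of 28 (4 of them annexins, which the annexin list counts again). In SCP51 against the parent 2 rose and 0 fell, where 1.38% and 1.58% of all genes did, and the list median was 0.04 beside -0.10 for all genes. The annexin list, with 9 tested genes of 12, held the same 2 genes and had a median of 0.21. ANXA6, a membrane scaffold that binds S100 proteins, read 288, 258 and 290 in the parent, 323, 280.4 and 340.0 in SCP58, and 456, 535 and 450.5 in SCP51. It rose by 0.79 ± 0.13 against the parent (limma adjusted p = 0.0178) and stood 0.61 ± 0.13 above SCP58 (limma adjusted p = 0.04). ANXA2, the partner of S100A10, read 7137, 6746 and 6875 in the parent, 7666, 7341 and 7460.1 in SCP58, and 8099, 8292 and 8124 in SCP51. It rose by 0.24 ± 0.04 (limma adjusted p = 0.0183), while S100A10 itself stood at 0.11 ± 0.12. The ANXA2 call was lost in 9 of 20 alternatives, among them no filter, no intensity trend and the mean of its probe sets.

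The partners ANXA6 and SYT1 were called in SCP51 against SCP58, both higher, where 1.48% of all genes were called higher and 2.60% lower. PADI3, the enzyme that citrullinates S100A3, is described without a test. It read 49.2, 64.5 and 56.2 in SCP51 against 40.0, 32.4 and 37.5 in the parent and 34.2, 34.8 and 26.9 in SCP58. It passed the filter through its 3 SCP51 arrays alone, so its direction was fixed by the filter, and its log2 difference from SCP58 was 0.83. SYT1, a vesicle protein of the export complex of S100A13 and FGF1, read 1044, 1453 and 1294 in SCP51, 760, 709 and 853 in SCP58, and 1217, 1281 and 1154 in the parent, so that the parent lay with SCP51. Its difference from SCP58 was 0.70 ± 0.14 (limma adjusted p = 0.0339). In SCP58 against the parent limma called no partner or annexin (8 of 27 and 1 of 9 at an unadjusted p under 0.05, beside 8.60% of all genes).

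Of 22 tested genes for other EF-hand proteins, 1 rose and 1 fell in SCP51 against the parent, where 1.38% of all genes rose and 1.58% fell. CALB2, the calcium buffer calretinin, read 99.6, 111 and 117 in the parent, 72.4, 82.7 and 58.0 in SCP58, and 55.2, 47.2 and 59.4 in SCP51. It fell by 1.02 ± 0.16 in SCP51 (a log2 difference of -1.02, limma adjusted p = 0.0126). CALU, the secretory pathway protein calumenin, read 1032, 971 and 1132 in the parent, 1085, 1149.9 and 1310.0 in SCP58, and 1616, 1766 and 1555 in SCP51. It rose by 0.66 ± 0.11 (limma adjusted p = 0.0193), and by 0.45 with the mean of its probe sets, where it was not called. In SCP51 against SCP58 TESC, tescalcin, was the 1 gene called of 22, against 4.08% of all genes, with 144, 145 and 127 in SCP51 against 94.7, 97.6 and 91.8 in SCP58, a difference of 0.55 ± 0.10 (limma adjusted p = 0.0249). None was called in SCP58 against the parent (limma; 5 of 22 at an unadjusted p under 0.05, against 8.60% of all genes).

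Many of these calls were lost when an array was left out. In SCP51 against the parent none of ANXA2, ANXA6, CALB2 and CALU was called without parent replicate 2, parent replicate 3 or SCP51 replicate 2, and CALB2 alone was called without parent replicate 1. Adjusted p over the alternatives (limma) ranged from 0.00623 to 0.0745 for ANXA6, 0.00327 to 0.293 for ANXA2, 0.00442 to 0.0695 for CALB2 and 0.00994 to 0.305 for CALU. In SCP51 against SCP58, CGN was called without each of the 9 arrays in turn (limma adjusted p from 0.00685 to 0.0708 over all alternatives). It was not called with the mean of its probe sets or with only the 6 arrays compared. Its log2 differences over the alternatives ranged from -0.70 to -0.45. ANXA6, SYT1 and TESC were not called without parent replicate 3, without SCP51 replicate 2 or without any 1 SCP58 array, and neither were ANXA6 and SYT1 without parent replicates 1 or 2 or SCP51 replicate 3, or TESC without parent replicate 1. Adjusted p over the alternatives (limma) ranged from 0.0121 to 0.153 for ANXA6, 0.00392 to 0.135 for SYT1 and 0.0193 to 0.0955 for TESC.

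By the correlation of log2 signals over the 9 arrays, the genes most like S100A14 among 798 whose group means spanned at least 1 log2 unit were CHD7, RBCK1, CTHRC1, EVA1A and MAF1, with Pearson r of 0.976, 0.966, 0.966, 0.961 and 0.956. The 9 arrays fall into 3 lines, so these values mostly compare 3 group means. CHD7, a chromatin remodeller, had mean log2 signals of 8.36 in the parent, 7.90 in SCP58 and 7.10 in SCP51, the same order as S100A14 at 10.73, 9.88 and 8.02. CTHRC1, a secreted protein with a collagen repeat, stood at 8.32, 7.91 and 6.71. Of these 5 genes 3 (CHD7, CTHRC1 and MAF1) lie on chromosome 8, as did 9.4% of the genes compared, and none of the 5 lies on chromosome 1. The share of the genes compared was counted for chromosome 8 alone. The 5 genes were picked by their likeness to S100A14, so their positions are a description and not a test.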

How the data were processed

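The deposited values are linear intensities, 1 per probe set. The submitters' processing notes name GCOS 1.4, and how it scaled arrays, treated background and summarised probes is not given in the sources used here. Values below 1 were set to 1, log2 was taken and no scaling was added. The 62 control probe sets were left out. Symbols were updated through Entrez identifiers (99.9% matched) with a RefSeq table of GRCh38.p14, which also gave gene order and the upstream sequences. No build is named for the arrays. Probe sets above their array's median on at least 3 of 9 arrays were kept, and each gene was represented by its brightest one, which left 13598 genes. limma 3.58.1 in R 4.3.3 fitted 1 mean per group to all 9 arrays, with an intensity trend and two-sided p adjusted by Benjamini-Hochberg over all genes, and was tested on simulated data. The number of arrays limits the precision.

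The members, the lists and the rule for named genes were chosen with earlier results of these data known. The rule takes every member, up to 4 called genes of each list and comparison, and the 5 genes most like S100A14. Alternatives changed the filter, the scaling, the log2 offset, the trend, array weights, the choice of probe set, the arrays fitted and a replicate block, and left out each array in turn, 20 per comparison. Figures were drawn with matplotlib 3.10.9.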

Additional observations from a re-analysis of the deposited data

How the results depend on the processing

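The members were selected on the S100A14 signal, so their calls are counted only to show how the processing moves them. The number of members called in SCP51 against the parent was 1, and 2 with array weights (1 to 2 leaving out an array). In SCP58 against the parent it was 0, and 2 with array weights. In SCP51 against SCP58 it was 2, and 3 with array weights. It was 1 with no filter, with the replicate number as a block or with only the 6 arrays compared (1 to 3 leaving out an array). Partner, annexin, other EF-hand and neighbour genes called in SCP51 against the parent numbered 4, and 7 after quantile normalization, 12 with array weights, 0 with the replicate block and 1 with only the 6 arrays compared (0 to 6 leaving out an array). In SCP58 against the parent they numbered 0, and 15 with array weights (0 to 2 leaving out an array). In SCP51 against SCP58 they numbered 6 (PADI3, whose direction the filter fixed, included), and 15 with array weights, 1 with the replicate block and 0 with only the 6 arrays compared (1 to 10 leaving out an array).

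Calls over all genes (402, 19 and 555 in that order of comparisons) were 1356, 1351 and 1527 with array weights, 167, 6 and 210 with the replicate block, and 151, 31 and 134 with only the 6 arrays compared. Every probe set by itself gave 884 in the last comparison. Leaving out an array gave 122 to 724, 0 to 75 and 137 to 1189. The causes were not tested. The deviations of same-numbered arrays from their line means correlated between lines at -0.22 to 0.133. Differently numbered arrays were not compared, so this check cannot settle whether the numbers pair the arrays. S100P lay under the array median on all arrays and the second S100A10 probe set on 8 of 9, and neither entered the fit.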
